A study of Mus musculus with 4 samples.

Results

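The expression of 10 mouse genes for retinoid handling and alcohol oxidation was described in the small intestine of mice labelled HNF4 null and of control mice. The genes were Adh1, Adh4, Adh5, Adh7, Rdh7, Aldh1a1, Rbp2, Bco1, Lrat and Dhrs3, and they were taken up by name, as every probe set to which the array annotation gave exactly 1 of these symbols. The names themselves were selected on earlier comparisons of null with control in these same arrays, so the differences between these groups are given as a description and carry no p-value. The rule found 10 of 12393 named genes and 11 of the 22626 probe sets that were not controls, 1 for each gene and 2 for Adh7. Of the 11, 9 were among the 15838 bright enough to enter the test across all probe sets, and 1 Adh7 probe set and the Bco1 probe set were too dim.

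Total RNA was taken from the small intestine of 4 mice of 1 month, with 1 Affymetrix array for each animal. Both HNF4 null animals, 1 male and 1 female, had the genotype HNF4loxp/- with villin cre, a transgene that acts in intestinal epithelium and leaves the loxP allele intact in other cells of the wall. The control female had HNF4loxp/+ and villin cre, and the control male had HNF4loxp/- and no Cre. The minus allele was thus shared by both null animals and 1 of the controls, and Cre by both null animals and the other control. The labels do not say which paralogue, Hnf4a or Hnf4g, was targeted, which segment of intestine was taken, or whether the animals were littermates. The animal numbers of the males are adjacent, as are those of the females, so sex and anything such adjacency stands for cannot be told apart.

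Median deposited intensities were 43.2 and 53.3 on the null arrays, against 50.2 and 49.5 on the control arrays, and correlations between arrays across probe sets were 0.927 to 0.963, lowest for those of the null male. The brightest Hnf4a probe set read 1136 and 1025 in null intestine, against 1141 and 731 in control intestine, a log2 difference of 0.23 (SE 0.22), and −0.08 without the control male. The differences of the 4 Hnf4a probe sets were 0.08 to 0.32, the highest with an SE of 0.22, and those of both Hnf4g probe sets were 0.12 and 0.16. Whether these probe sets lie in the deleted part is unknown here, so they do not check the null labels, and null here means a library with that label. Of 10 enterocyte markers 8 were on the array and all 8 lay above the filter, with summed normalized intensities of 37300 and 36900 in null intestine and 39200 and 38800 in control intestine. For 8 smooth muscle markers the sums were 2370 and 3010 in null intestine and 2330 and 2270 in control intestine, so the null female stood highest. In RNA of a whole tissue, fewer cells of a type and less RNA per cell cannot be told apart.

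Enterocytes take up vitamin A as retinol and as plant carotenoids. BCO1 cleaves beta-carotene to retinal, DHRS3 reduces retinal to retinol, RBP2 carries both in the cytosol, and LRAT esterifies retinol for export in chylomicrons. Along the opposite route, retinol dehydrogenases and some alcohol dehydrogenases oxidise retinol to retinal. ALDH1A1 and some of its relatives oxidise retinal further to retinoic acid, the ligand of the RAR receptors. Alcohol dehydrogenases also clear ethanol and, in the case of ADH5, formaldehyde bound to glutathione.

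Rdh7, Adh4 and Aldh1a1, which encode oxidising enzymes, had lower signals in both null animals than in either control. Their log2 differences were −1.69, −1.47 and −0.72 with 2 animals in each group. Null values of Adh5 and Dhrs3 also lay below both controls, by smaller differences of −0.18 and −0.16. Groups did not overlap, in either direction, for 29.8% of all probe sets tested. Rbp2, the enterocyte retinol carrier, differed by −0.05, and Adh1 by 0.09, with overlapping groups. The dim genes of cleavage and esterification, Bco1 and Lrat, gave values at or not far above background.

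Because HNF4 binds DNA as a dimer at direct repeats of AGGTCA-like hexamers, the RefSeq promoter windows of the 10 genes (build GRCm38.p6, 250 bases before to 50 after an annotated start) were searched on both strands. The motifs were the HNF4 motif CAAAGTCCA, the hexamer repeated with 1 base between (AGGTCANAGGTCA), the same with 5 bases between, as retinoic acid receptors use, the extended hexamer AAAGGTCA and the bare hexamer AGGTCA. The last 2 overlap each other and the repeats. All 10 genes were found in the RefSeq table, with 15 windows in all, and 4 windows, of 4 genes, held a motif. These 4 are printed 5′ to 3′ on the strand of the gene, since they held a motif, and capitals mark every matched base. They lie at chr3:138415247-138415546 on the plus strand for Adh4, chr10:127889198-127889497 on the minus strand for Rdh7, chr9:98490287-98490586 on the plus strand for Rbp2 and chr8:117095615-117095914 on the plus strand for Bco1.
Adh4: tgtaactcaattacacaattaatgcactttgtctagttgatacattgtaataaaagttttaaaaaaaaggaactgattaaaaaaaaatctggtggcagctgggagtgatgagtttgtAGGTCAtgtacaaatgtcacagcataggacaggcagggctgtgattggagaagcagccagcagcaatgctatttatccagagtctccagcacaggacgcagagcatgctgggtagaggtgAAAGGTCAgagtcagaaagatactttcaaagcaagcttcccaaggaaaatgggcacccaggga
Rdh7: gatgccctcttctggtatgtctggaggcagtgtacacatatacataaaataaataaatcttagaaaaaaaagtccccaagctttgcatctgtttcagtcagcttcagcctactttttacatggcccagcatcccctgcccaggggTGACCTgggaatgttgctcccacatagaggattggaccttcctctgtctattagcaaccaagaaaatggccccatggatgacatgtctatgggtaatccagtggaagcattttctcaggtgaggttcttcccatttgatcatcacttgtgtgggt
Rbp2: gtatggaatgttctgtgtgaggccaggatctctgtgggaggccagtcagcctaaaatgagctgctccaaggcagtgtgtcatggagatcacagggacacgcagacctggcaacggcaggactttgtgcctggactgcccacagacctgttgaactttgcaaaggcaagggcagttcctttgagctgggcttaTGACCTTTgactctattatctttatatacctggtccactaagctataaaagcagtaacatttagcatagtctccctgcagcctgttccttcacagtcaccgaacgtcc
Bco1: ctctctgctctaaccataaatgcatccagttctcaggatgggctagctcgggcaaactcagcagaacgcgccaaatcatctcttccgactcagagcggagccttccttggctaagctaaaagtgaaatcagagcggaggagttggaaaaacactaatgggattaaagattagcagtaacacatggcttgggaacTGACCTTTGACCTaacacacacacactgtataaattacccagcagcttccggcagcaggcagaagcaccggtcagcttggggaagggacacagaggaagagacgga

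The repeat with 1 base between was matched in the Bco1 window alone, 56 bases before the start, against 0.0396% of 32851 mouse windows of the same length. The extended hexamer was matched in the windows of Adh4, Rbp2 and Bco1, against 1.51% of all windows, and it began 13 bases before the start in Adh4 and 58 bases before it in Rbp2. The bare hexamer, held by 16.3% of all windows, was matched in these 3 genes and in 1 of the 2 Rdh7 windows. The motif CAAAGTCCA (0.475% of all windows) and the repeat with 5 bases between (0.00913%) were matched in none of the 15, and the windows of Aldh1a1, Adh1, Adh5, Adh7, Lrat and Dhrs3 held no match of any kind. The motifs were chosen after the sequences had been seen. A match is a string of letters and not a measured site, and each window covers 300 bases only. The hexamer is not particular to HNF4, since retinoic acid receptors use its repeat with 5 bases between. Which factor, if any, binds a match was not tested.

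**Figure D1:**
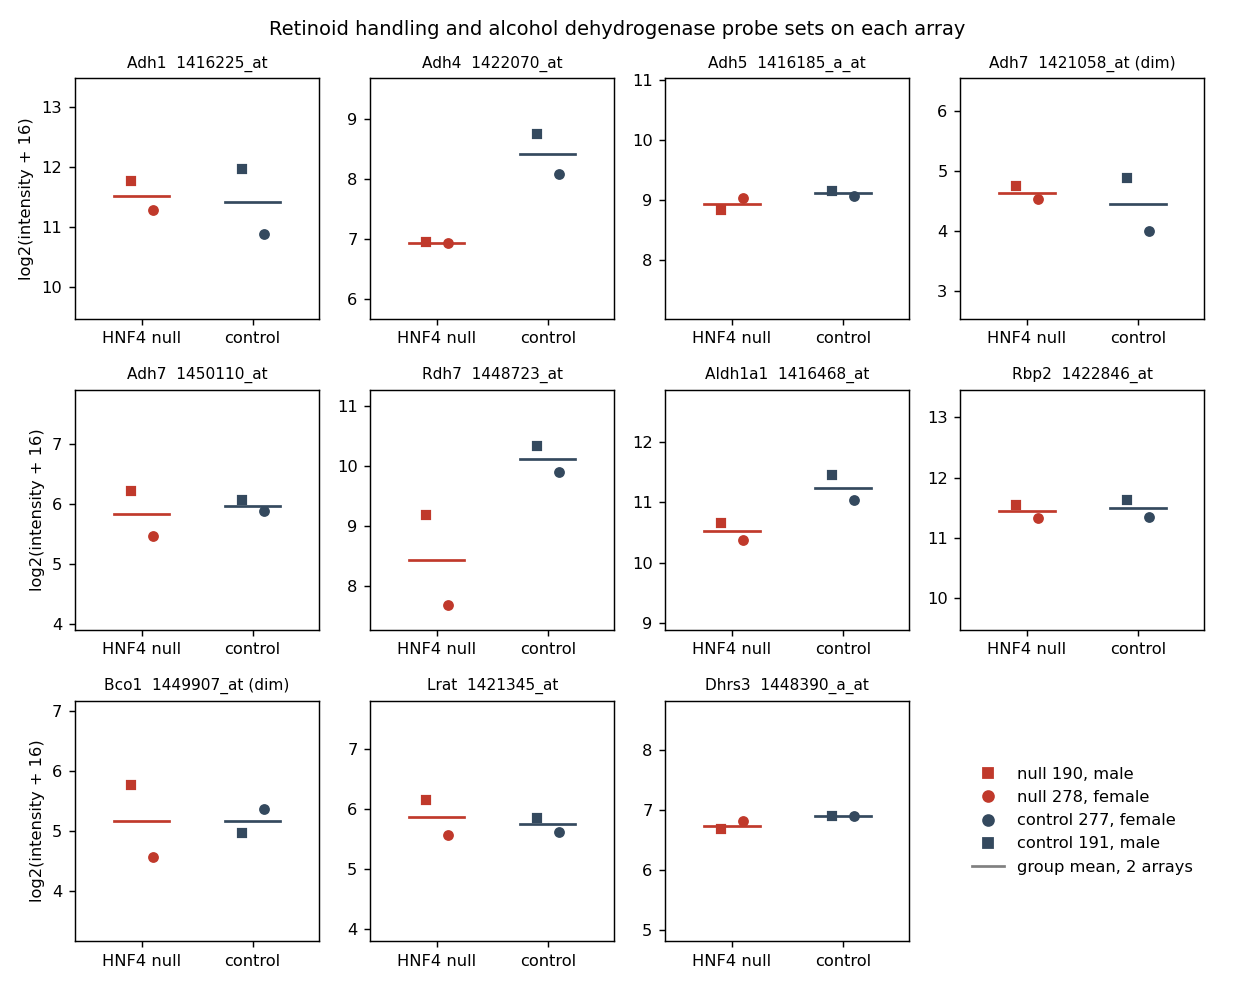
Normalized log2(intensity + 16) of the 11 probe sets on each array, with null arrays left of control arrays in every panel. Squares are males, circles females and lines the mean of 2 arrays, and each panel spans the same number of log2 units. The null arrays lie far below the controls for Adh4 and Rdh7 and clearly below for Aldh1a1, while the symbols overlap for Adh1 and Rbp2. Panels marked dim did not pass the filter.

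Rdh7 and Adh4 had the largest mean log2 differences of the 10 genes, and which of them was larger depended on the measure and on single arrays. Rdh7, also called CRAD2, is a microsomal short-chain dehydrogenase that acts on retinol and on steroids. Its deposited intensities were 555 in the null male and 199 in the null female, against 955 in the control female and 1296 in the control male. All null values lay below all control values, and the null female was the lowest of all. On the scale of log2(intensity + 16) after quantile normalization, Rdh7 averaged 8.43 ± 1.06 in null intestine and 10.12 ± 0.30 in control intestine (SD, n = 2 each), a difference of −1.69 (SE 0.45, 95% interval −2.78 to −0.61). Mean normalized intensity in null intestine was 33.9% of that in control intestine. Between the males it was −1.15 and between the females −2.23. Leaving out 1 array changed its size, to −2.41 without the null male and −0.95 without the null female.

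Adh4, the class II alcohol dehydrogenase, which oxidises retinol and longer alcohols, read 97.3 and 113 in null intestine, against 263 and 415 in control intestine. The null arrays were nearly equal and the controls were spread, with the male control the higher. Means were 6.94 ± 0.02 in null and 8.41 ± 0.47 in control intestine (SD, n = 2 each), which gave a log2 difference of −1.47 (SE 0.27, 95% interval −2.11 to −0.84). In null intestine the signal was 32% of that in control intestine, and without the null female the difference was −1.48. The pairs differed by −1.79 for males and −1.15 for females.

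Aldh1a1, the cytosolic enzyme that makes retinoic acid from retinal, had deposited intensities of 1592 and 1286 in null intestine and 2134 and 2790 in control intestine. The groups did not overlap, and the male was the higher of each group. Its means were 10.52 ± 0.20 in null and 11.24 ± 0.28 in control intestine (SD, n = 2 each), a difference of −0.72 (SE 0.17, 95% interval −1.14 to −0.31). Null signal was 60% of control signal, and the pairs gave −0.78 for males and −0.66 for females. Beside this value, the 8 enterocyte markers had a median difference of −0.13, with 6 lower and 2 higher. They ran from −0.39 for Anpep to 0.27 for Apoa4. Vil1, the villin gene, stood at −0.38 (SE 0.19), with 0 between the males and −0.75 between the females. The part of these markers in the Aldh1a1 result was not tested.

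Both remaining bright alcohol dehydrogenases showed little or no separation. Adh1, the class I enzyme that clears retinol and ethanol, read 3584 and 2361 in null intestine, against 1897 and 3969 in control intestine. The highest and the lowest value both belonged to controls, and within each group the male was brighter. Adh1 differed by 0.09 (SE 0.34, 95% interval −0.72 to 0.91), with −0.21 between the males and 0.40 between the females. Adh5, the glutathione-dependent formaldehyde dehydrogenase found in most cells, read 420 and 508 in null intestine, against 538 and 547 in control intestine. Its null values lay below the controls, but by a difference of −0.18 (SE 0.17, 95% interval −0.59 to 0.23) that is about the size of its error. In the reference annotation Adh5 is the next protein-coding gene after Adh4 and Adh1 the third before it, so the Adh4 difference was not shared by these neighbours in size.

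Adh7, the class IV enzyme of stomach and upper gut lining, was near background on both probe sets. The brighter probe set read 51.5 and 31.5 in null intestine, against 43.9 and 51.2 in control intestine, with overlapping groups and a difference of −0.13 (SE 0.31). On the dimmer one, which did not pass the filter, values were 7.43 and 9.09 in null intestine and −1.53 and 13.9 in control intestine. Background here can be judged from 6 probe sets of Y-linked genes in the 2 females, which read −2.23 to 34.4. Stomach markers summed to 718 and 366 in null intestine and 409 and 486 in control intestine, and hepatocyte markers to 178 and 97.9 in null intestine and 163 and 108 in control intestine. Both pairs of sums overlap between the groups. Besides the enterocyte and smooth muscle sums, those that did not overlap were of goblet markers, at 12100 and 12700 in null and 9650 and 9270 in control intestine, Paneth markers, at 14400 and 14800 in null and 19000 and 18900 in control intestine, T cell markers, at 697 and 487 in null and 918 and 806 in control intestine, and endothelial markers, at 377 and 381 in null and 271 and 295 in control intestine. The 4 Paneth markers had a median difference of 0.03 and moved apart, with Pla2g2a at −3.63, Lyz1 at −0.21, Itln1 at 0.26 and Mmp7 at 1.22. Pla2g2a alone read 292 and 550 in null intestine, against 4907 and 5767 in control intestine. Fibroblast, B cell and enteroendocrine markers overlapped, with median log2 differences of 0.22, 0.31 and 0.36. The part of these cell types in the values of the 10 genes was not tested.

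Rbp2 and Dhrs3, for carrying and reduction of retinoids, showed smaller differences than Rdh7, Adh4 and Aldh1a1, as did Adh1 and Adh5. Lrat and Bco1, for storage and cleavage, read at or near background. Rbp2 read 3018 and 2435 in null intestine, against 2608 and 3149 in control intestine. The groups overlapped, with means of 11.44 ± 0.16 in null and 11.49 ± 0.20 in control intestine (SD, n = 2 each). The Rbp2 difference of −0.05 had a standard error of 0.14 and a 95% interval from −0.37 to 0.28. This interval overlaps that of Aldh1a1 (−1.14 to −0.31) and not those of Rdh7 or Adh4. Whether the genes differ from each other was not tested. Dhrs3 read 77.6 and 102 in null intestine and 106 and 105 in control intestine. Its null values lay just below the controls, with a difference of −0.16 (SE 0.21, 95% interval −0.65 to 0.34). Lrat read 48.3 and 34.7 in null intestine and 33.9 and 42.4 in control intestine, with a difference of 0.12 (SE 0.29), and overlapping groups. Bco1, below the filter, read 33.4 and 10.03 in null intestine and 26.1 and 15.9 in control intestine. The Bco1 values lie within the range of the Y-linked probe sets in females and those of Lrat at or not far above its upper end, so their differences compare readings at or near background.

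**Figure D2:**
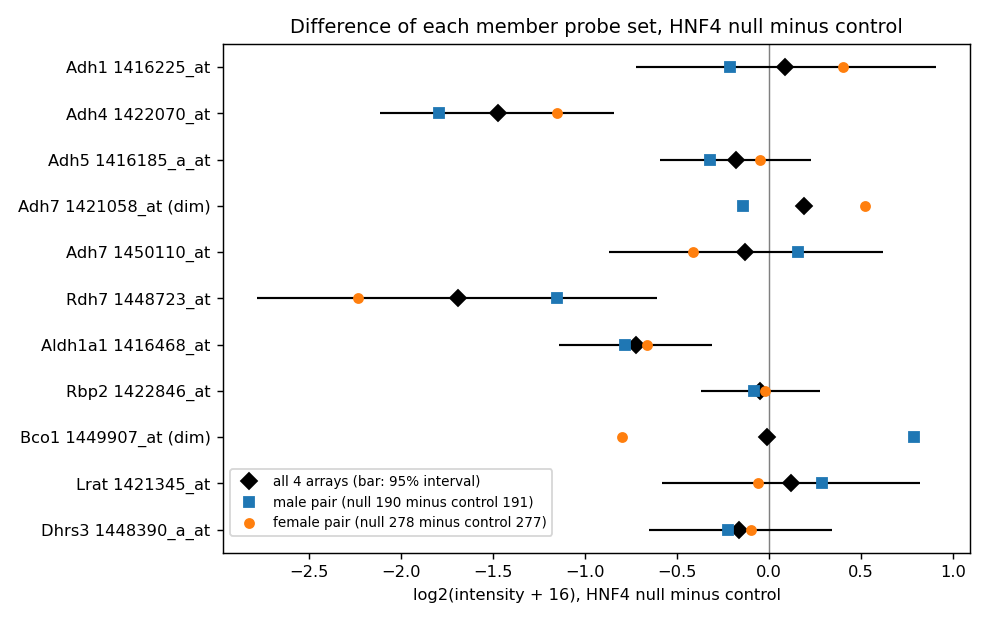
Null minus control difference of each probe set on the log2(intensity + 16) scale. Diamonds are the difference over all 4 arrays with the 95% interval of limma (no interval for dim probe sets), squares the male pair and circles the female pair. Rdh7 at −1.69, Adh4 at −1.47 and Aldh1a1 at −0.72 lie below 0 in both pairs, and Rbp2 lies near 0 in both.

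Limma called 0 of the 9 tested member probe sets at an adjusted p under 0.05, where 0.0126% of all probe sets were called. An unadjusted p under 0.05 was found for 3 of the 9, against 479 of all 15838 probe sets tested. With sex as a block it called 3, Adh4, Rdh7 and Aldh1a1, where 0.164% of all were called. Null and control values did not overlap for 5 of the 9, against 29.8% of all probe sets tested. Because the names were chosen with this comparison known, nothing is read from these counts.

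Genes with patterns nearest to that of Rdh7 over the 4 arrays were taken by the smallest root mean square distance between centred log2 values. The 5 nearest were AI506816 and the carboxylesterase gene Ces1f, both at a distance of 0.22, Slc5a4b, of the sodium-glucose transporter family, at 0.28, and the glutathione transferase Gstm3 and Pmp22 at 0.30 each. The ranking rests on 4 arrays. Ces1f read 267 and 148 in null intestine and 510 and 689 in control intestine, with the null female lowest as for Rdh7. Its difference was −1.48 (SE 0.34). Because the 5 genes were picked by their values on these same 4 arrays, the shared order and direction follow from the choice.

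Other genes of the pathway were listed from textbook knowledge with earlier results of these data known. Of 68 such genes, 54 were on the array and 44 lay above the filter, and limma without covariates called 0 higher and 0 lower. With an unadjusted p under 0.05 there were 7 lower and 0 higher, against 168 lower and 140 higher of 9559 named genes tested. In all 24 of the 44 were lower and 20 higher, a median difference of −0.02, and for all named genes 49.7% were lower with a median of 0. The median was −0.18 without the control female and 0.10 without the control male, so its sign rested on single arrays. By role, 6 of 11 genes listed for oxidation or reduction of retinol and retinal were lower (median 0). For genes listed under the step from retinal to retinoic acid it was 3 of 4 (median −0.15), and for uptake 2 of 5 (0.03). For binding it was 1 of 5 (0.28), for receptors 1 of 5 (0.14) and for retinoic acid targets 2 of 3 (−0.02). Of the other aldehyde dehydrogenases, 4 of 5 were lower (−0.21). None of the 3 genes for retinoic acid breakdown passed the filter.

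Esterification and hydrolysis stood apart within the list by its median, at −0.78 over 6 genes of which 5 were lower. Its lowest values were those of 3 carboxylesterases, which hydrolyse retinyl esters among many other esters. The fourth, Ces1d, overlapped between the groups, at −0.37 (SE 0.37), with 0.23 between the females. Ces1e read 12.8 and 10.96 in null intestine, against 52.3 and 66.5 in control intestine, a difference of −1.39 (SE 0.29). Ces1g read 9.28 and 11.4 in null intestine, against 40.6 and 52.4 in control intestine, a difference of −1.20 (SE 0.29). The null values of both lie in the background range, so the sizes are uncertain. Ces1f was the 1 gene of the list called with sex as a block (adjusted p = 0.019 in limma), against an adjusted p of 1 without it. Of all 9559 named genes tested, 23 were called with that block. The list was written with earlier results of these data known, so nothing is read from this call. Dgat1, which esterifies retinol and diacylglycerol, differed by −0.28 (SE 0.16), and Lipe, the 1 gene of this role that was higher, by 0.30 (SE 0.23). The other genes of the role belong to the Ces1 family, so its median rests largely on that family.

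Among the oxidoreductases and retinal dehydrogenases outside the 10 genes, the relatives of Aldh1a1 did not share 1 pattern. Of the genes named from the cluster of Rdh7, only Rdh9 read clear of background on all arrays. Aldh1a7, a close relative of Aldh1a1 and its next protein-coding neighbour in the reference annotation, read 84.4 and 110 in null intestine, against 203 and 196 in control intestine. The groups did not overlap, and the difference was −0.89 (SE 0.20), with −0.94 between the males and −0.84 between the females. Aldh1a2 and Aldh1a3, which like Aldh1a1 make retinoic acid, overlapped between the groups, at 0.35 (SE 0.40) and −0.13 (SE 0.22). The transcripts of Aldh1a1 and Aldh1a7 are similar, and whether their probe sets take up signal from each other was not tested. Rdh9, which lies in the same gene cluster as Rdh7, differed by −0.64 (SE 0.25) on an s_at probe set, a class whose probes can match several transcripts, as does that of Ces1f. Rdh16 of that cluster differed by 0.00 (SE 0.41), at 27.6 and 31.8 in null intestine and 15.5 and 53.4 in control intestine. Rdh1 was below the filter at 21.2 and 29.6 in null intestine and −0.771 and 28.5 in control intestine. Apart from the Rdh16 value of the control male, these readings lie in the background range, so they do not measure a change or its absence.

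Retsat, the saturase that makes dihydroretinol from retinol, read 476 and 437 in null intestine, against 761 and 1366 in control intestine. Its difference was −1.09 (SE 0.28), and −0.57 on its other probe set. Other values were −0.56 for Aldh1b1 and −0.41 for Aldh3a2, both aldehyde dehydrogenases, −0.60 for the aldo-keto reductase Akr1b8, 0.63 for the retinoic acid binding protein Crabp1 and −0.44 for the receptor Rxra. All of these genes had an adjusted p of 1 in limma. Crabp1 read 54 and 37.1 in null intestine, against 25.4 and 23.6 in control intestine. Its control values lie in the background range and its null values not far above it, so the size is uncertain.

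**Figure D3:**
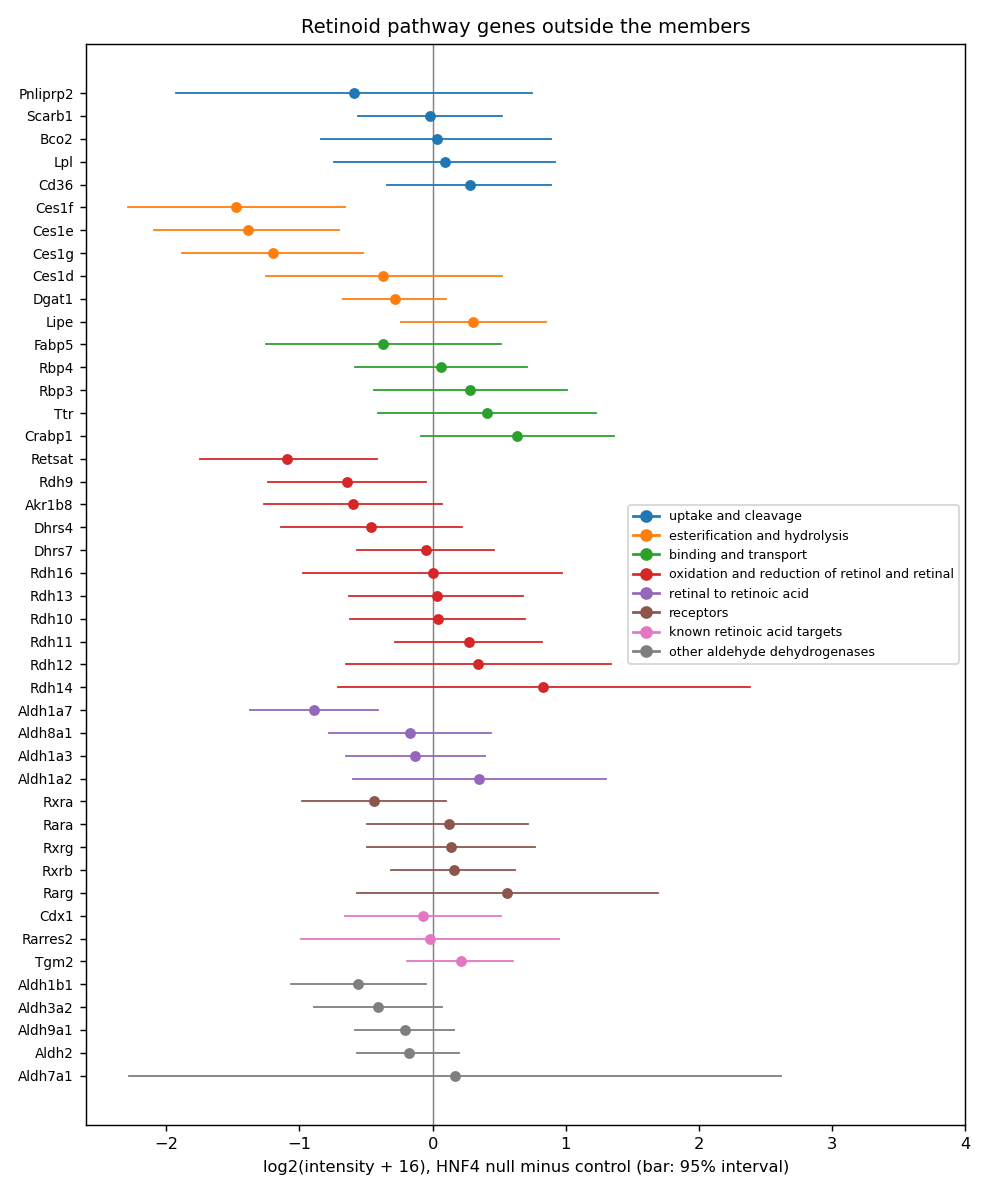
Null minus control difference (log2(intensity + 16), points with 95% intervals of limma over 4 arrays) of the 44 pathway genes outside the 10, coloured by role and sorted within it. The lowest points are the carboxylesterases Ces1f, Ces1e and Ces1g, then Retsat and Aldh1a7, and most others lie near 0.

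The males and females of these arrays were compared as well, with genotype as a covariate, a contrast that did not enter the choice of genes and was added after the data were seen. Adh1 was higher in males, at 11.87 against 11.09 in females on the log2 scale, a difference of 0.79 (SE 0.14, 95% interval 0.48 to 1.09). It was the 1 member probe set of 9 that limma called (adjusted p = 0.0361), where 0.543% of all probe sets were called. Values were 3584 and 3969 in the males, against 2361 and 1897 in the females, so the sexes did not overlap. The call was lost with arrays scaled by their medians (difference 0.99, adjusted p = 0.186 in limma) and with no trend in the prior (0.79, adjusted p = 0.673). Rdh7 was not called at 0.96 (SE 0.23, adjusted p = 0.135 in limma), and Rbp2 stood at 0.25 (SE 0.10) and Aldh1a1 at 0.34. Of all 9559 named genes tested, 4807 were higher in males, with a median of 0. Of the 44 pathway genes 35 were, with a median of 0.22, and this count was not tested. The gene called in that list was Pnliprp2, a relative of pancreatic lipase named after its values were seen, at 1.32 (SE 0.20, adjusted p = 0.0189 in limma). With 2 animals per sex and adjacent numbers within each, sex cannot be told apart from litter or handling. The genotype covariate separates null from control only. Among the controls, the male had HNF4loxp/- and no Cre, and the female HNF4loxp/+ and villin cre. Sex cannot be told apart from these differences either. All 4 pancreatic acinar markers on the array were higher in males by this fit, with a median of 0.29. Their summed intensities were 926 and 523 in the null and 509 and 567 in the control male and female. Other cell types also moved with sex. All 5 enteroendocrine markers were higher in males (median 0.45) and 0 of 6 fibroblast markers were (median −0.29). Of 3 B cell markers 1 was higher in males (median −1.25), Jchain, at 1.07 (adjusted p = 0.00288 in limma). The part of these cell types in the sex differences was not tested.

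**Figure D4:**
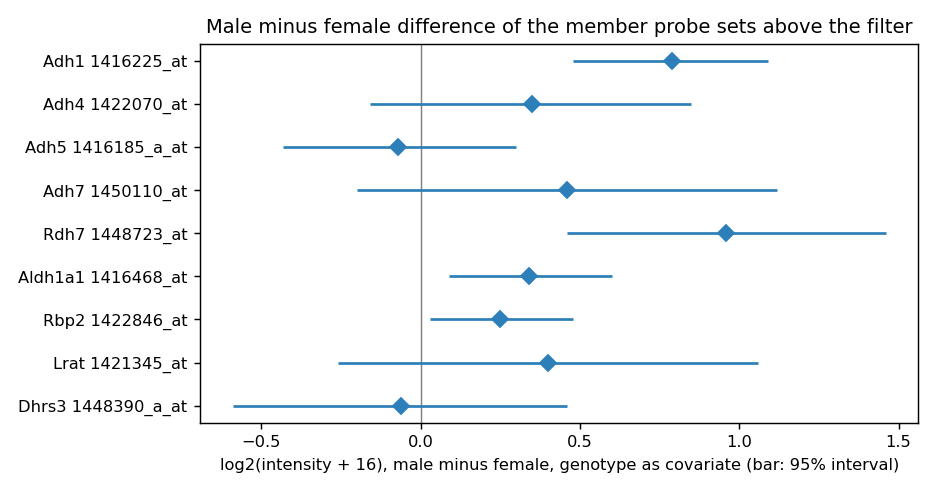
Male minus female difference of the 9 member probe sets above the filter (log2(intensity + 16), diamonds with 95% intervals of limma, genotype as covariate, 2 males and 2 females). Adh1 at 0.79 and Rdh7 at 0.96 lie farthest to the right, and Adh5 and Dhrs3 lie at about 0.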

How the data were processed

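Total RNA of 4 mouse small intestines was labelled with biotin by the standard Affymetrix procedure and hybridised to 1 array each, per the labels' protocols. The values as deposited are linear intensities, a few of them below 0, with 1 for every probe set of an array. What software and scaling produced them is not given in the sources used here. Of 22690 probe sets, 64 controls were left out. Of the others, 20380 carried 1 gene symbol, 691 several and 1555 none in the platform annotation.

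The arrays were quantile normalized, values below 0 were set to 0, and log2(intensity + 16) was taken, a scale that understates changes of dim genes. The dimmest 30% by mean were left out of the test. Null and control were compared in limma 3.58.1 (R 4.3.3; lmFit, eBayes with trend, two-sided, no covariates) with Benjamini-Hochberg adjustment over 15838 probe sets at 0.05. The labels name separate animals, 2 in each group, and that number limits the precision. The procedure was tested on simulated data.

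A gene with several probe sets was represented in the pathway list by its brightest. Members and lists were chosen with earlier results of these data known. Named were all members, the 12 pathway genes with the smallest p, close relatives of members (Aldh1a7, Rdh1, Rdh9, Rdh16), and the 5 genes nearest in pattern to the member with the largest mean log2 difference. Alternatives were other scalings, pseudocounts, filters, no trend, sex as a block and each array left out. The male and female comparison and quantile normalization with control probe sets were added after seeing the data. Promoter windows come from RefSeq (GRCm38.p6).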

Additional observations from a re-analysis of the deposited data

Results flagged for a closer look

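Some probe sets differed between null and control in opposite directions in the male and the female pair, each pair being 1 null and 1 control animal. These differences between pairs were not tested. The male difference minus the female difference was −0.61 for Adh1, −0.65 for the dimmer Adh7 probe set, 0.57 for the brighter Adh7 probe set, 1.59 for Bco1 and 0.35 for Lrat, in log2 units. Bco1 and the dimmer Adh7 probe set lay within the range of background readings, and Lrat and the brighter Adh7 probe set at or not far above it, so these 4 values compare readings near background and do not measure a change in expression.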

How the results depend on the processing

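Limma called 2 probe sets in all, 1 with the dimmest 50% left out, 0 without a trend (465 at an unadjusted p under 0.05), 26 with sex as a block, and 0 to 30 with 1 array left out, 30 of them without the null male, 10 without the null female, 3 without the control female and 0 without the control male (201 unadjusted). Calls among the member probe sets were 3 with sex as a block and 0 to 1 with 1 array left out, the 1 being Rdh7 without the null male. Member probe sets that were lower numbered 8, and 5 to 10 with 1 array left out. Of the pathway genes, 1 was called with sex as a block. Their median was −0.02, −0.18 to 0.10 with 1 array left out and −0.10 with the dimmest 50% left out. The brightest Hnf4a probe set gave 0.23, and −0.08 to 0.57 with 1 array left out. Rdh7, Adh4, Aldh1a1, Adh5 and Dhrs3 kept their direction under all 9 alternatives that can move a difference of means. The other 4 (both filters, no trend and sex as a block) cannot. All null values of these genes lay below all control values. Leaving out an array or changing the pseudocount could therefore hardly reverse their sign, and little is read from the kept direction. Adh1 ranged from −0.45 without the control female to 0.65 without the control male. Without further normalization the median male minus female difference of all probe sets was −0.11, and Adh1 stood at 0.83 and Rdh7 at 0.92 (adjusted p = 0.00745 in limma). The adjusted p of Adh1 ranged from 0.000197 to 0.673 over its alternatives. Adh5 was −0.07, and 0.04 with median scaling. Leaving out an array from that comparison leaves no residual degrees of freedom, so it was not run. The labels give the groups no shared replicate numbers, so the paired fit is the one with sex as a block.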
